A study of Mus musculus with 12 samples.

Results

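Primary white adipocytes that received a synthetic mimic of the mouse microRNA let-7e-5p were compared with the same kind of culture that received a negative control. The comparison takes 8 of the 12 libraries of the series, the 4 labelled let-7e and the 4 labelled negative control, and describes all 15754 genes of the count table. The 4 remaining libraries, labelled let-7d, entered the shared estimate of the spread and the direct contrast of the mimics. All groups share the wild-type genotype (WT), the C57BL/6 strain, male sex, an age of 8 weeks and a chow diet. Stromal vascular cells of the epididymal fat pad were grown to near confluence and induced with insulin (850 nM), IBMX (250 µM), dexamethasone and rosiglitazone (1 µM each). Rosiglitazone and insulin alone were kept in the medium after that. Mimic or control was brought in by reverse transfection with Lipofectamine RNAiMAX on day 4 of differentiation, and total RNA was taken on day 7. The sources used here give neither the amount of mimic nor the sequence of the negative control. The labels do not tell separate cultures or animals from repeat libraries, so the p-values measure only how far these libraries scatter, and that scatter may be technical.

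MicroRNAs of the let-7 family load into Argonaute proteins and pair, mainly through bases 2 to 8 (the seed), with sites in the 3′ untranslated region (UTR) of messages. Paired messages are degraded or translated less. Let-7 rises as tissues mature, and its classic targets are genes of embryonic growth, RAS signalling, insulin-like growth factor signalling and the microRNA machinery itself. In fat it has been linked to the balance between proliferation and differentiation of precursor cells and to insulin response.

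The mature sequences below are those of RefSeq (GRCm38.p6), with the seed in capitals, and are shown because the mimics share the seed while differing outside it.
mmu-let-7e-5p: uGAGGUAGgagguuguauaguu
mmu-let-7d-5p: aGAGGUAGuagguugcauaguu
Mature let-7e lies at chr17:17830366-17830387 on the plus strand and mature let-7d at chr13:48536078-48536099 on the minus strand. Counted from the 5′ end with the let-7d base first, the differences are A1U, U9G and C16U, so none falls in the seed. A site that pairs with bases 2 to 8 and stands before an A is an 8mer (CTACCTCA). Without the A it is a 7mer-m8 (CTACCTC), with the A and bases 2 to 7 a 7mer-A1 (TACCTCA), and with bases 2 to 7 alone a 6mer (TACCTC). Each gene was put in the class of its best site, on the message strand only.

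The libraries held 15071299 (control 2) to 33396316 (let-7e 3) counts, and replicates are named here by group and number. Sample identifiers fall into 2 series, which split each group into replicates 1 and 2 (ID run 1) and replicates 3 and 4 (ID run 2). What the series stand for is not in the labels. The runs separated on a first principal component with 81.9% of the variance, so a run term was fitted and values within each run are given. On the second component (4.57%) all 4 controls lay at 14.8 to 23.8 and all 8 mimic libraries below 0. Adipocyte identity genes summed to 30704 to 33180 CPM (the usual abbreviation for a gene's counts relative to its library's TMM-scaled total) in ID run 1 and 6580.5 to 9283 CPM in ID run 2, with control and let-7e libraries overlapping in both, and all 7 defining adipocyte markers, Adipoq, Fabp4 and Plin1 among them, were present in every library. Of 14 lymphocyte markers the table holds 2, Trac and Lck, each at 3.20 CPM or less in the control and let-7e libraries, and the 5 defining ones are not in it.

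With let-7e, 600 genes rose and 896 fell, which is 3.81% and 5.69% of the genes tested (9.50% in all), by edgeR's quasi-likelihood test at an adjusted p under 0.05. Most changes were small. Among the called genes 137 rose and 222 fell by at least 0.5 on the log2 scale, and 26 rose and 46 fell by at least 1. The median standard error (SE) of a log2 fold change was 0.084. All but 7 of the called genes, 1489 of 1496, had the same sign in both runs. In 1361 of them the libraries of the groups did not overlap in either run, in the direction of the call. Over all genes 8.70% lay above and 10.4% below the controls in both runs in this way. Within ID run 1 alone 488 genes rose (3.10%) and 634 fell (4.02%), within ID run 2 alone 144 rose (0.914%) and 246 fell (1.56%), and 235 were called in both with the same direction and 0 with opposite ones. Of the 1496 called genes 660 were called in each of the 8 fits that left a library out, 257 of them higher and 403 lower. The total was 844 without let-7e 1 and 874 without let-7e 2, and the number higher was 384 without control 1, 331 without let-7e 1 and 345 without let-7e 2.

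**Figure D1:**
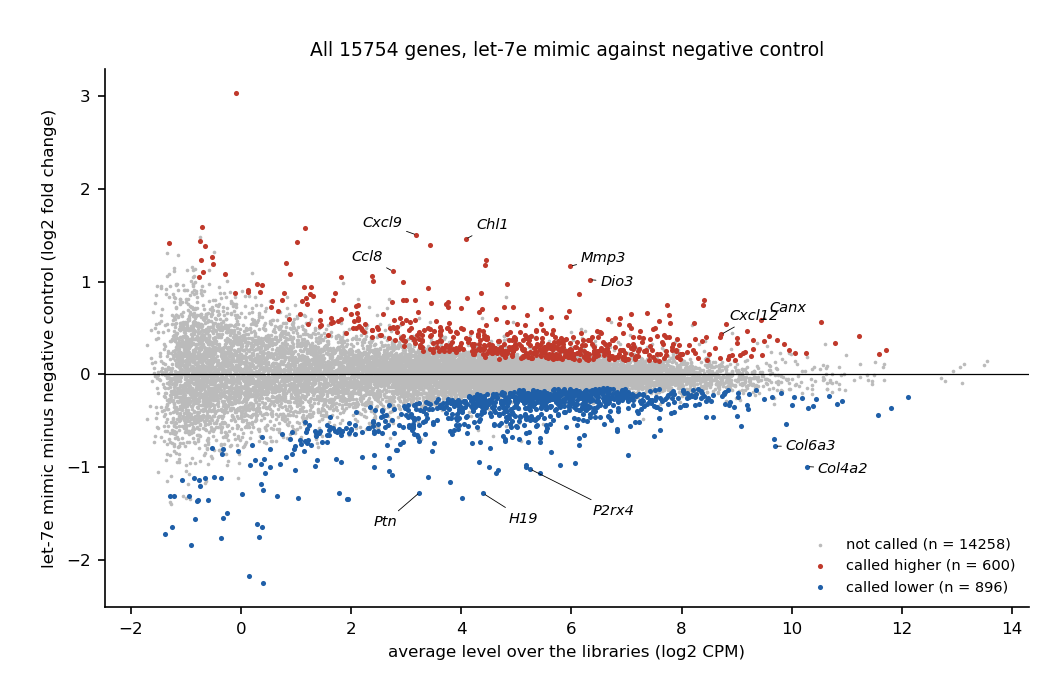
Log2 fold change of each gene with the let-7e mimic (vertical axis, let-7e minus control) against its average level (horizontal axis, log2 CPM), with called genes in colour. The 600 called higher and 896 called lower include genes below 2 log2 CPM, and most lie within 0.5 of 0.

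The largest rise among the genes named by rule, at an average of at least 2 log2 CPM, was that of Cxcl9, a chemokine that attracts T cells. Cxcl9 stood at 1.65, 2.02, 9.89 and 4.29 CPM in controls 1 to 4 and at 5.14, 6.96, 27.9 and 11.3 CPM in let-7e 1 to 4. Both let-7e libraries lay above both controls in each run (log2 fold change 1.5 ± 0.33 (SE), edgeR adjusted p = 0.00846). Chl1, a neural cell adhesion molecule, rose by 1.46 ± 0.27 (adjusted p = 0.00275) and Cxcl5, a chemokine for neutrophils, by 1.40 ± 0.29 (adjusted p = 0.00631). The collagenase Mmp13 rose by 1.23 ± 0.23 and stromelysin 1, Mmp3 (chr9:7445822-7455975), by 1.17 ± 0.11 (adjusted p = 0.00287 and 1.64e-05). Mmp3 measured 18.4, 14.5, 55.9 and 40.6 CPM in the controls and 37.2, 41.5, 117 and 92 CPM in the let-7e libraries, with no overlap within either run. Dio3, the enzyme that inactivates thyroid hormone, was at 28.8, 26, 81.3 and 64.4 CPM in the controls and 61.4, 63.9, 144 and 127 CPM with let-7e. Its groups did not overlap within either run, and the rise was 1.02 ± 0.095 (adjusted p = 1.56e-05). The chemokine Ccl8 (1.11 ± 0.15), the brain membrane protein gene Tmem59l (1.0 ± 0.17) and the peptide hormone gene Cck (0.98 ± 0.22) also rose (edgeR adjusted p = 2.05e-04, 0.0019 and 0.0115). Without let-7e 3 the rise of Cck was 0.63 and still called. Of the 12 genes with the largest rise 9 were called with each library left out, while Ccl5 was not in 2 of the 8 such fits, Crocc2 not in 5 and Wfdc17 not in any.

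The largest falls among the genes named by rule were those of Acta1, the skeletal muscle actin, and of H19, an imprinted RNA of fetal tissue known to carry let-7 sites (chr7:142575529-142578143). H19 measured 22.4, 24.6, 49.2 and 40.5 CPM in the controls and 6.62, 8.61, 26.1 and 17.6 CPM with let-7e. The let-7e libraries were lower in both runs without overlap, and H19 changed by -1.28 ± 0.15 (SE, edgeR adjusted p = 9.77e-05), with -1.64 in the first run and -1.03 in the second. Acta1 fell from 40.2, 35, 14.3 and 24.4 CPM to 10.8, 12, 10.8 and 9.17 CPM, with all 4 let-7e libraries below all 4 controls (-1.33 ± 0.18, adjusted p = 1.95e-04). Ptn, the heparin-binding growth factor pleiotrophin, changed by -1.27 ± 0.14 and Itih4, a plasma protein of the inter-alpha-trypsin inhibitor family, by -1.16 ± 0.10 (adjusted p = 4.02e-05 and 8.67e-06). Both genes differed widely in level between the runs, Ptn with 1.75, 1.53, 25.8 and 25.4 CPM and Itih4 with 44.3, 42.4, 1.92 and 1.80 CPM in controls 1 to 4, and fell in each. Daam2, a formin of the Wnt pathway (-1.0), Nrep (-1.03), the F-box gene Fbxl22 (-1.04) and Bc1 (-1.06) fell with edgeR adjusted p of 6.57e-06, 1.59e-04, 1.59e-04 and 4.57e-04. All 12 genes with the largest fall were lower without overlap in both runs and stayed called in all 8 fits that left a library out.

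Genes with a let-7 site in the annotated 3′ UTR fell more often than genes without, as the cumulative plot by site class shows. Of 13541 genes with an annotated 3′ UTR (longest per gene, GENCODE vM21), 507 (3.74%) held an 8mer at best, 918 (6.78%) a 7mer-m8, 874 (6.45%) a 7mer-A1 and 1309 (9.67%) a 6mer. Among genes with an 8mer 80 fell (15.8%) and 14 rose (2.76%), with a median log2 fold change of -0.060. For 7mer-m8 sites 125 fell (13.6%) and 20 rose (2.18%), median -0.057. With a 7mer-A1 105 fell (12%) and 32 rose (3.66%), median -0.033. A 6mer went with 93 lower (7.10%) and 70 higher (5.35%), median -0.019, and no site with 444 lower (4.47%) and 439 higher (4.42%), median 0.0066. The share that fell was in the order of the pairing strength of the classes. So were the medians, except that the 8mer median lay closer to 0 than the 7mer-m8 median in ID run 1 and without let-7e 2, let-7e 3, let-7e 4 or control 4. The medians within the runs were -0.050 and -0.087 for 8mers, -0.055 and -0.065 for 7mer-m8 sites and -0.0032 and 0.014 for genes with no site. The median of genes with no site was 0.0115 without control 2, 0.0022 without control 4 and -0.0011 without let-7e 3, and that of 6mers was -0.0091 without control 4. Of the 847 genes that fell and have an annotated 3′ UTR, 310 (36.6%) held at least 1 site of 7 or 8 bases, against 66 of the 575 that rose (11.5%). Single libraries moved these numbers, as without let-7e 1 and let-7e 2 the 7mer-m8 genes called lower were 81 and 77, the 7mer-A1 genes 56 and 60, and the genes with any site of 7 or 8 bases 191 and 196. For genes with no site the number lower was then 244 and 246, and 295 without let-7e 4. For 6mers it was 50 without let-7e 1 and 59 without let-7e 2. The numbers higher moved too, and the 14 genes with an 8mer that rose were 7 without control 1, 7 without let-7e 1, 4 without let-7e 2, 8 without control 4 and 8 without let-7e 4. The 66 with any site of 7 or 8 bases that rose were 42 without let-7e 1 and 42 without let-7e 2, and the 20 with a 7mer-m8 were 13 without let-7e 1. For 6mers the number higher was 40 without control 1, 45 without let-7e 1, 37 without let-7e 2 and 46 without let-7e 4. For no site it was 284 without control 1, 234 without let-7e 1 and 253 without let-7e 2.

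**Figure D2:**
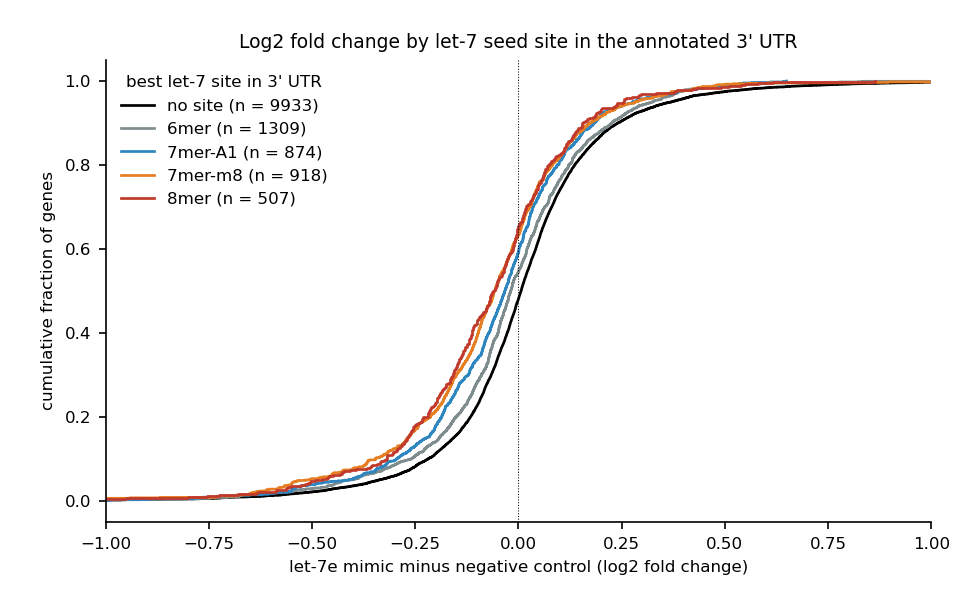
Cumulative fraction of genes (vertical axis) by log2 fold change with the let-7e mimic (horizontal axis, let-7e minus control), for 5 classes of best let-7 site. The curves of the 8mer and 7mer-m8 classes lie farthest to the left, with medians of -0.060 and -0.057 against 0.0066 for genes with no site.

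More sites went with more frequent falls. With 0 sites of 7 or 8 bases 537 of 11242 genes fell (4.78%), with 1 site 223 of 1867 (11.9%), with 2 sites 63 of 345 (18.3%) and with 3 or more 24 of 87 (27.6%, median -0.11). Genes with sites have longer UTRs, a median of 2398 bases for those with at least 1 such site and 998 for those with none, and the classes were also counted within 3 equal groups by UTR length. In the shortest UTRs, up to about 710 bases, 11 of 41 genes with an 8mer fell (26.8%) against 153 of 4165 with no site (3.67%). In the middle group the numbers were 22 of 140 (15.7%) and 181 of 3469 (5.22%). In the longest, from about 1845 bases, the numbers were 47 of 326 (14.4%) and 110 of 2299 (4.78%).

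The following sites carry the target genes described next and are printed 5′ to 3′ on the message strand, with the seed match in capitals (GRCm38.p6).
Hmga2, 3′ UTR 8mer: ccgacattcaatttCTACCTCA
E2f6, 3′ UTR 8mer: tcacctagcgctctCTACCTCA
Nras, 3′ UTR 7mer-m8: cctcttcagaataaCTACCTCc
Ago2, 3′ UTR 8mer: tttacaatgtggatCTACCTCA
Tarbp2, 3′ UTR 7mer-m8: cagaggtgccatctCTACCTCt
These lie at chr10:120364224-120364245 (Hmga2, minus strand), chr12:16826404-16826425 (E2f6, plus), chr3:103064360-103064381 (Nras, plus), chr15:73097982-73098003 (Ago2, minus) and chr15:102523430-102523451 (Tarbp2, plus). Hmga2 has 7 sites of 7 or 8 bases in a UTR of 3014 bases, Ago2 has 4 in 11064 bases, Nras has 2 in 3727 bases and E2f6 and Tarbp2 have 1 each.

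Of the let-7 targets known from the literature 11 of 50 tested fell and 1 rose, and 39 of the 50 had a negative log2 fold change. Their median was -0.11, -0.11 in the first run and -0.12 in the second, beside -0.0019 over all genes. Hmga2, which bends DNA in embryonic chromatin, measured 13.9, 14.1, 22.8 and 29 CPM in the controls and 7.66, 9.12, 18.6 and 18.6 CPM with let-7e. Its let-7e libraries were lower in both runs without overlap, a log2 fold change of -0.59 ± 0.095 (SE, edgeR adjusted p = 0.00105). The growth signalling GTPase gene Nras stood at 104, 97.7, 152 and 147 CPM against 70.7, 76, 120.4 and 116 CPM, again without overlap within a run (-0.40 ± 0.047, adjusted p = 1.00e-04). E2f6, a repressor of cell cycle genes, went from 48.5, 46.5, 57 and 57 CPM to 29.7, 31.5, 37.9 and 44.5 CPM with no overlap of the groups (-0.55 ± 0.065, adjusted p = 1.00e-04). The matrix protein gene Thbs1, which also stands in the matrix lists, fell by 0.44 (adjusted p = 0.00118). Igf1r, the receptor of insulin-like growth factors, has 3 sites of 7 or 8 bases and was lower in both runs without overlap, with 69.2, 73.7, 36.8 and 38.7 CPM against 62.9, 68.1, 32.3 and 32.9 CPM, and its change of -0.17 ± 0.057 did not pass the test (adjusted p = 0.0801). Also called lower were the transcription factor genes Pbx3, Plagl2 and Bach1, Igf2bp2, Cdc34 and Ccnd2, at -0.37 to -0.20, while Rictor, a subunit of the mTORC2 kinase, was the member that rose (0.24). Of the 12 calls 8 held with each library left out, and Rictor was not called without control 1 or without any of the 4 let-7e libraries. Lin28a, Lin28b and Trim71, targets of embryonic cells, were not in the table.

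The microRNA machinery, which let-7 is known to act on through Dicer1, showed 3 genes lower and 1 higher of 23 tested, with a median of -0.043 (-0.005 without control 4 and -0.021 without let-7e 3). Dicer1, the enzyme that cuts microRNA precursors (chr12:104687742-104751952), measured 65.9, 63.3, 36.5 and 44.5 CPM in the controls and 48.8, 47, 29.1 and 29 CPM with let-7e. The let-7e libraries were lower in both runs without overlap (-0.45 ± 0.061 (SE), edgeR adjusted p = 2.13e-04). Tarbp2, the partner of Dicer, fell by 0.32 (adjusted p = 0.0053) and Ago2, the Argonaute that can cut its target, fell by 0.28 (adjusted p = 0.0182). Ago2 stood at 147, 171, 63.8 and 74.7 CPM in the controls and 119, 134, 59 and 58.7 CPM with let-7e, and its call was lost without control 2 (log2 fold change -0.23, adjusted p = 0.0604), let-7e 1 (log2 fold change -0.24, adjusted p = 0.0812) and control 4 (log2 fold change -0.25, adjusted p = 0.0502). Ago4, another Argonaute, rose from 5.10, 5.49, 3.20 and 3.56 CPM to 7.86, 7.89, 4.53 and 4.29 CPM without overlap within a run (0.49 ± 0.099, adjusted p = 0.00579), and its 3′ UTR holds a 7mer-A1 site.

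Pairing along the whole mimic was searched in the messages of 13584 genes, and 6 genes held a window in which at least 18 of the 22 bases pair with let-7e without a gap. These 6 were named after their values were seen, outside the rule for named genes, because a mimic is identical to the microRNA along its length while the seed sites above use 7 or 8 bases. Bases that pair are in capitals.
P2rx4, coding sequence, 19 bases: AACatTACcACCTCCTACCTCA
Odf2, coding sequence, 18 bases: ccCTATACAtCCTCCTACCTgA
Sumf2, 3′ UTR, 18 bases: AACTcTcgAtCCTCCTACCTCA
Dicer1, coding sequence, 18 bases: AcCTgTACAACCaaCTACCTCA
The windows lie at chr5:122725006-122725027 (P2rx4, plus strand), chr2:29930602-29930623 (Odf2, plus), chr5:129863168-129863189 (Sumf2, plus) and chr12:104702804-104702825 (Dicer1, minus). All 4 genes fell, while Tnfsf10 (-0.37, adjusted p = 0.451) and Ank3 (-0.11, adjusted p = 0.63), with 18 bases each in the 3′ UTR, did not pass the test. With let-7d the P2rx4 and Sumf2 windows pair at 16 bases, the Odf2 and Ank3 windows at 15, the Dicer1 window at 17 and the Tnfsf10 window at 18. Among genes whose best window paired at 17 bases 5 of 35 fell (14.3%), and at 16 bases 14 of 236 (5.93%). At 14 to 15 bases 404 of 5708 fell (7.08%) and at 10 to 13 bases 420 of 7599 (5.53%), so the shares below 17 bases were not in order of pairing.

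P2rx4 encodes an ion channel opened by extracellular ATP (chr5:122707544-122729738). Its level was 49.3, 49.7, 38.6 and 37.7 CPM in controls 1 to 4 and 23.5, 22.2, 19.7 and 20.4 CPM in let-7e 1 to 4. All 4 let-7e libraries lay below all 4 controls across both runs, and the log2 fold change of -1.02 ± 0.053 (SE) had an edgeR adjusted p of 3.13e-08. No let-7 site was found in its annotated 3′ UTR. Odf2, a protein of sperm tails and centrioles, went from 53.2, 55.8, 44.1 and 52 CPM to 39, 42.2, 33.6 and 33.6 CPM, without overlap of the groups (-0.47 ± 0.064, adjusted p = 2.43e-04). Sumf2, an enzyme relative of the sulfatase activator, has the window as an 8mer site in its 3′ UTR and fell by 0.36 (adjusted p = 8.00e-04).

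Insulin-like growth factor (IGF) and insulin signalling had 9 genes lower and 1 higher of 42 tested, median -0.079 (-0.12 without control 1 and -0.044 without control 2). Pappa, the protease that frees IGF from its binding proteins, measured 78.5, 76.2, 100.1 and 154 CPM in the controls and 33.1, 41, 75 and 65.1 CPM with let-7e. The let-7e libraries were lower in both runs without overlap, a change of -0.95 ± 0.12 (edgeR adjusted p = 1.10e-04), and the Pappa 3′ UTR holds an 8mer. Its relative Pappa2 was at 2.22, 3.06, 4.32 and 3.68 CPM and 0.877, 0.670, 1.79 and 1.93 CPM, all 4 let-7e libraries below all 4 controls (-1.33 ± 0.22, adjusted p = 0.00118). The kinase gene Rps6kb1 fell as well (-0.29, adjusted p = 7.44e-04), as did the ligand Igf1 (-0.32), the binding protein Igfbp3 (-0.46), the substrate Irs1 (-0.37), the clearance receptor Igf2r (-0.33) and the adaptor Grb10 (-0.15). The number lower was 5 without let-7e 3, and 5 of the 10 calls held with each library left out. Among imprinted growth genes, which share Igf2r and Grb10 with this list, 4 of 22 fell and 1 rose, led by H19, with Peg10 at -0.55. Without let-7e 1 the number of imprinted genes lower was 2, and the rise of Rian (0.28) was lost in 4 of the 8 fits.

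**Figure D3:**
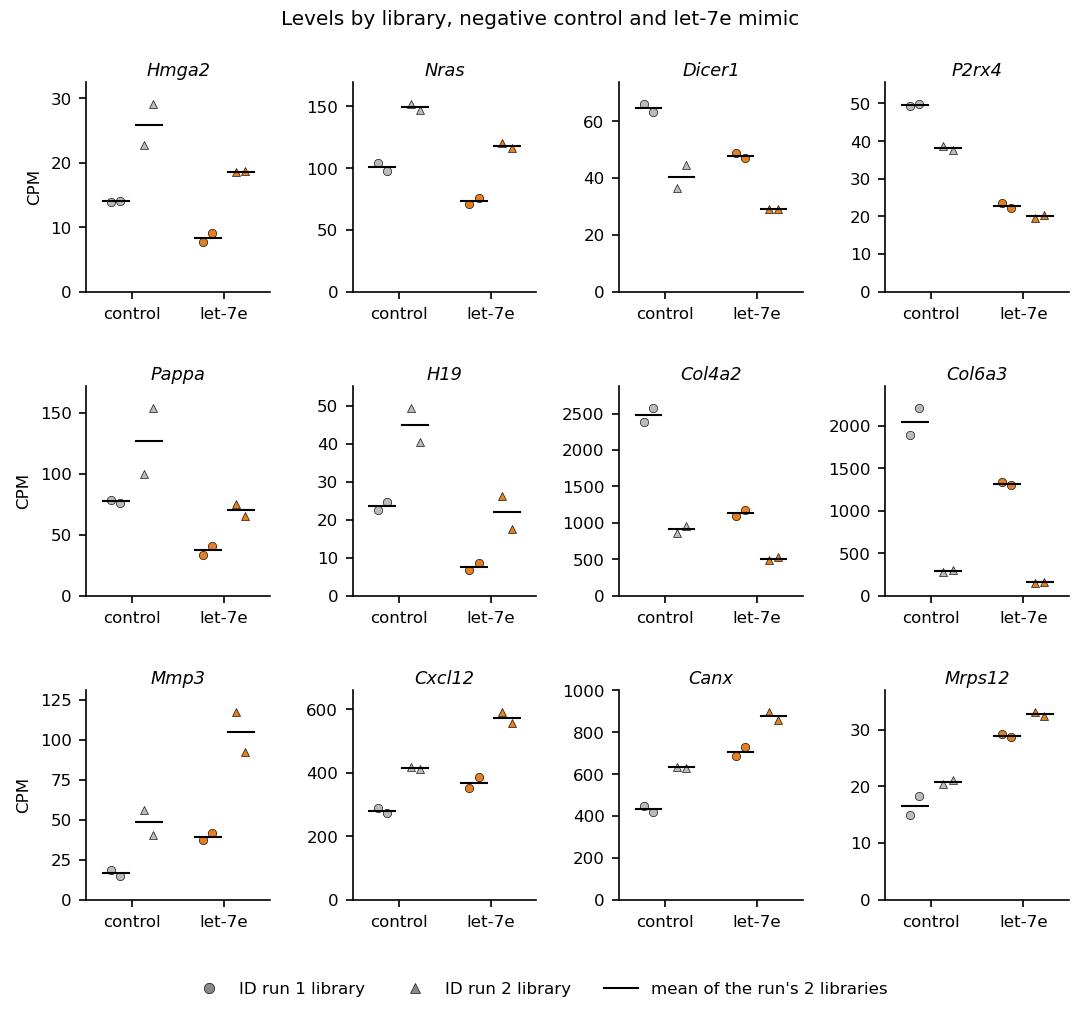
Levels of 12 genes in each library (vertical axes, CPM, starting at 0) for negative control and let-7e mimic, with circles for ID run 1, triangles for ID run 2 and a bar at the mean of each pair. In each run both let-7e libraries lie below both controls for Hmga2, Nras, Dicer1, P2rx4, Pappa, H19, Col4a2 and Col6a3 and above them for Mmp3, Cxcl12, Canx and Mrps12.

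Matrix genes were called in both directions. The list of fibrillar and other collagens also holds genes that are not collagen chains, P4ha2 among them. Of its 30 tested genes 8 fell and 2 rose, with 19 of 30 below 0 (median -0.073, -0.041 without control 2). The 3 main chains of collagen VI fell, Col6a3 (-0.77 ± 0.082 (SE), edgeR adjusted p = 3.52e-05), Col6a2 (-0.53) and Col6a1 (-0.36). Col6a3 measured 1888, 2203, 277 and 305 CPM in the controls and 1332, 1296, 145 and 163 CPM with let-7e, lower without overlap in each run though the runs themselves lie far apart. Both chains of the short-chain collagen VIII fell, Col8a2 at -1.11 and Col8a1 at -0.51 (adjusted p = 2.30e-05 and 3.71e-05). Bmp1, the protease that trims procollagen, rose by 0.34 (adjusted p = 5.48e-04). The number lower was 5 without control 2, 5 without let-7e 2 and 5 without let-7e 4. In the basement membrane 2 of 23 fell (8.70%) and 1 rose (4.35%), beside 5.69% and 3.81% of all genes. The fall of Col4a2, a chain of collagen IV (chr8:11312805-11449287), was the large one. Col4a2 stood at 2382, 2571, 863 and 957 CPM in the controls and 1089, 1173, 486 and 526 CPM with let-7e, without overlap within a run (-0.99 ± 0.079, adjusted p = 6.57e-06). Col4a1, the partner chain whose gene shares a promoter with Col4a2 and which was named after its value was seen, stood at 3414, 3796, 1334 and 1494 CPM and 3495, 3529, 1329 and 1479 CPM and did not pass the test (-0.024 ± 0.065, adjusted p = 0.872). The call of Nid1 (-0.24), which links laminin and collagen IV, was lost in 4 of the 8 fits that left a library out.

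Elastic fibre and crosslinking genes split, with 6 lower and 5 higher of 21. Elastin, Eln, measured 57.9, 50.8, 23.8 and 21.1 CPM in the controls and 27.4, 22.5, 7.69 and 15.2 CPM with let-7e, lower in both runs without overlap (-1.06 ± 0.20 (SE), edgeR adjusted p = 0.00392). The fibrillin gene Fbn2 fell by 0.74 and the lysyl oxidase Loxl2 fell by 0.33 (adjusted p = 0.0015 and 6.86e-04), while Ltbp2, which binds latent TGF-beta to the matrix, rose by 0.33 (adjusted p = 0.00275). The number higher was 2 without control 2, 3 without let-7e 1, 2 without let-7e 2, 3 without control 4 and 3 without let-7e 4. Small proteoglycans and matricellular proteins had 7 lower and 0 higher of 26, with 19 below 0 and a median of -0.15 (-0.089 without let-7e 3). Asporin, Aspn, was at 47.7, 25.9, 77.8 and 64.5 CPM and 20.4, 19.1, 32.2 and 38.5 CPM and fell by 0.97, lumican, Lum, fell by 0.76 and Ccn3, a secreted regulator of growth, fell by 0.57 (adjusted p = 4.24e-04, 0.00226 and 0.00587). Matrix proteases and their inhibitors counted 9 lower and 5 higher of 30. Beside the rises of Mmp3 and Mmp13, the membrane protease Mmp14 fell from 657, 601, 617 and 694.6 CPM to 439, 495, 479 and 471 CPM (-0.45 ± 0.059, adjusted p = 1.95e-04) and the urokinase Plau fell by 0.49 (adjusted p = 1.11e-04), while the inhibitor Timp2 rose by 0.37 (adjusted p = 6.18e-04). The number of proteases and inhibitors lower was 5 without control 1, 5 without let-7e 1 and 5 without let-7e 4.

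Of 20 smooth muscle and pericyte markers 6 fell and 0 rose, with 19 of 20 below 0 (median -0.24, -0.33 in the first run and -0.11 in the second, and -0.13 without control 1). Myh11, the smooth muscle myosin, measured 225, 174, 145 and 150.2 CPM in the controls and 129, 130.1, 112 and 113 CPM with let-7e. Its groups did not overlap within a run (-0.51 ± 0.073 (SE), edgeR adjusted p = 4.03e-04). The smooth muscle actins Acta2 and Actg2 changed by -0.36 ± 0.077 and -0.60 ± 0.088 and the myosin kinase Mylk by -0.33 ± 0.058 (adjusted p = 0.00808, 5.13e-04 and 0.00223). The list summed to 8841, 7130, 11958 and 12542 CPM in the controls and 6326, 6831, 10746 and 10479 CPM with let-7e, without overlap in either run, and 4 of the 6 calls held with each library left out. In bulk RNA fewer cells of a type and less RNA per cell cannot be told apart, and the part of contractile cells in the matrix results was not tested. Precursor and fibroblast markers had 4 higher and 1 lower of 19, while 12 of the 19 were below 0 and the median was -0.093. Of these calls only the fall of Thy1 (-0.46, edgeR adjusted p = 0.00576) held with each library left out. The number lower was 2 without let-7e 1 and 4 without control 4. Pdgfra, Dpp4, Ly6a and Cd9 were the members called higher, and their number was 2 without control 2, 0 without let-7e 1, 1 without let-7e 2, 1 without control 4 and 2 without let-7e 3. Endothelial markers summed to 448 to 606 CPM in the controls and 454 to 597 CPM with let-7e, with 14 of 16 above 0 (median 0.079). The 1 of 16 called was lower (6.25%, beside 5.69% of all genes), the VEGF receptor Flt1 (-0.32, edgeR adjusted p = 0.00208). Of 11 mesothelial markers edgeR called 0.

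Chemokines and inflammatory cytokines had 7 genes higher and 1 lower of 29, with a median of 0.21, 0.19 in the first run and 0.17 in the second. That median was 0.13 without control 4 and 0.091 without let-7e 3. Cxcl12, the stromal chemokine that retains blood cell precursors, measured 288, 271, 419 and 411 CPM in the controls and 351, 387, 590.1 and 557 CPM with let-7e. The let-7e libraries were higher in both runs without overlap (0.43 ± 0.049 (SE), edgeR adjusted p = 6.84e-05), and the Cxcl12 3′ UTR holds a 7mer-m8 site. Cxcl14 rose by 0.71 (adjusted p = 0.00279), Cxcl5 and Ccl8 are described above, and Lcn2 (0.82), Ccl5 (1.18) and Csf1 (0.23) were the other members that rose, while the adhesion molecule Vcam1 fell (-0.26), a call lost without let-7e 1, control 3 or let-7e 4. The chemokine Ccl5 stood at 1.51, 0.974, 33.2 and 21.2 CPM and 3.43, 3.56, 90.2 and 31.2 CPM, overlapped between groups in ID run 2 and was not called without control 4 (log2 fold change 1.0, adjusted p = 0.0897) and let-7e 3 (log2 fold change 0.49, adjusted p = 0.221). The number of this list higher was 4 without let-7e 3, and Cxcl9, described above, is not a member of it. Macrophage markers, whose cells are a known source of such messages, summed to 507 and 505 CPM in controls 1 and 2 against 556 and 371 CPM in let-7e 1 and 2. In ID run 2 they summed to 64.4 and 42.0 CPM in the controls against 86.7 and 116 CPM with let-7e. Their median log2 fold change was -0.17 in the first run and 0.92 in the second, and of the 21 tested edgeR called 0 both runs together. All 7 defining macrophage markers were above 0 in every library, Adgre1 at 18.1, 18, 0.752 and 0.164 CPM in the controls and 21.1, 12.2, 0.715 and 1.70 CPM with let-7e, and their part in the chemokine result was not tested.

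Interferon response genes, which cells switch on against viral RNA, gave different values in the runs. Both runs together 3 of 33 rose, Dhx58 (0.54), Zbp1 (0.40) and Irf9 (0.23), with edgeR adjusted p of 0.0182, 0.0498 and 0.0457, and 31 of 33 were above 0. In ID run 1 alone 13 rose with a list median of 0.52, and in ID run 2 alone 0 rose with a median of -0.047. Dhx58, a sensor of viral RNA, measured 21.5, 19.2, 34.9 and 27.9 CPM in the controls and 36.9, 37.5, 42.6 and 34.1 CPM with let-7e. The groups were apart in ID run 1 and overlapped in ID run 2. The number higher was 0 without control 1, 1 without control 2, 0 without let-7e 1, 0 without let-7e 2, 10 without control 3, 1 without control 4, 0 without let-7e 3 and 5 without let-7e 4, and none of the 3 calls held in all of the fits that left a library out. The test of the difference between runs called 0 of the 33 at an adjusted p under 0.05 and 22 at an unadjusted p under 0.05, where 8.87% of all genes reached the latter.

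Glycolysis and hypoxia genes also gave different values in the runs. Of 27 glycolysis genes 5 fell and 0 rose, median -0.24 (-0.12 without control 2 and -0.16 without let-7e 2), with 17 called lower and a median of -0.39 in ID run 1 and 1 called lower and a median of 0.025 in ID run 2. Slc16a3, the transporter that exports lactate, stood at 149, 194, 129.7 and 136 CPM in the controls and 71, 79.8, 153 and 105 CPM with let-7e. Controls 1 and 2 were above let-7e 1 and 2 and the groups overlapped in ID run 2 (-1.18 in the first run and -0.039 in the second). Its call (-0.61 ± 0.18 (SE), edgeR adjusted p = 0.0415) was lost without control 1, control 2, let-7e 1, let-7e 2 and let-7e 4, at adjusted p up to 0.166. Pfkp, a phosphofructokinase, fell in both runs (-0.33 ± 0.056, -0.41 in the first run and -0.26 in the second, adjusted p = 0.00145). Pgam1, a mutase whose reads may be shared with near-identical copies, was at -0.42 (adjusted p = 0.00952), with -0.69 in the first run and -0.16 in the second. The number of glycolysis genes lower was 2 without control 2, 3 without let-7e 1, 2 without let-7e 2, 8 without control 4, 11 without let-7e 3 and 3 without let-7e 4. In the hypoxia response 5 of 23 fell and 1 rose (median -0.19, -0.06 without control 2 and -0.12 without let-7e 1), with 11 lower in ID run 1 (median -0.44) and 0 in ID run 2 (median 0.077). Kdm3a, a histone demethylase, fell by 0.30 (adjusted p = 0.00772, -0.38 in the first run and -0.22 in the second) and was the hypoxia call that held with each library left out. The number of hypoxia genes lower was 2 without control 1, 2 without control 2, 1 without let-7e 1, 1 without let-7e 2 and 3 without let-7e 4. No member of either list was called for a difference between the runs, while 18 of 27 and 15 of 23 reached an unadjusted p under 0.05 in that test, beside 8.87% of all genes.

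**Figure D4:**
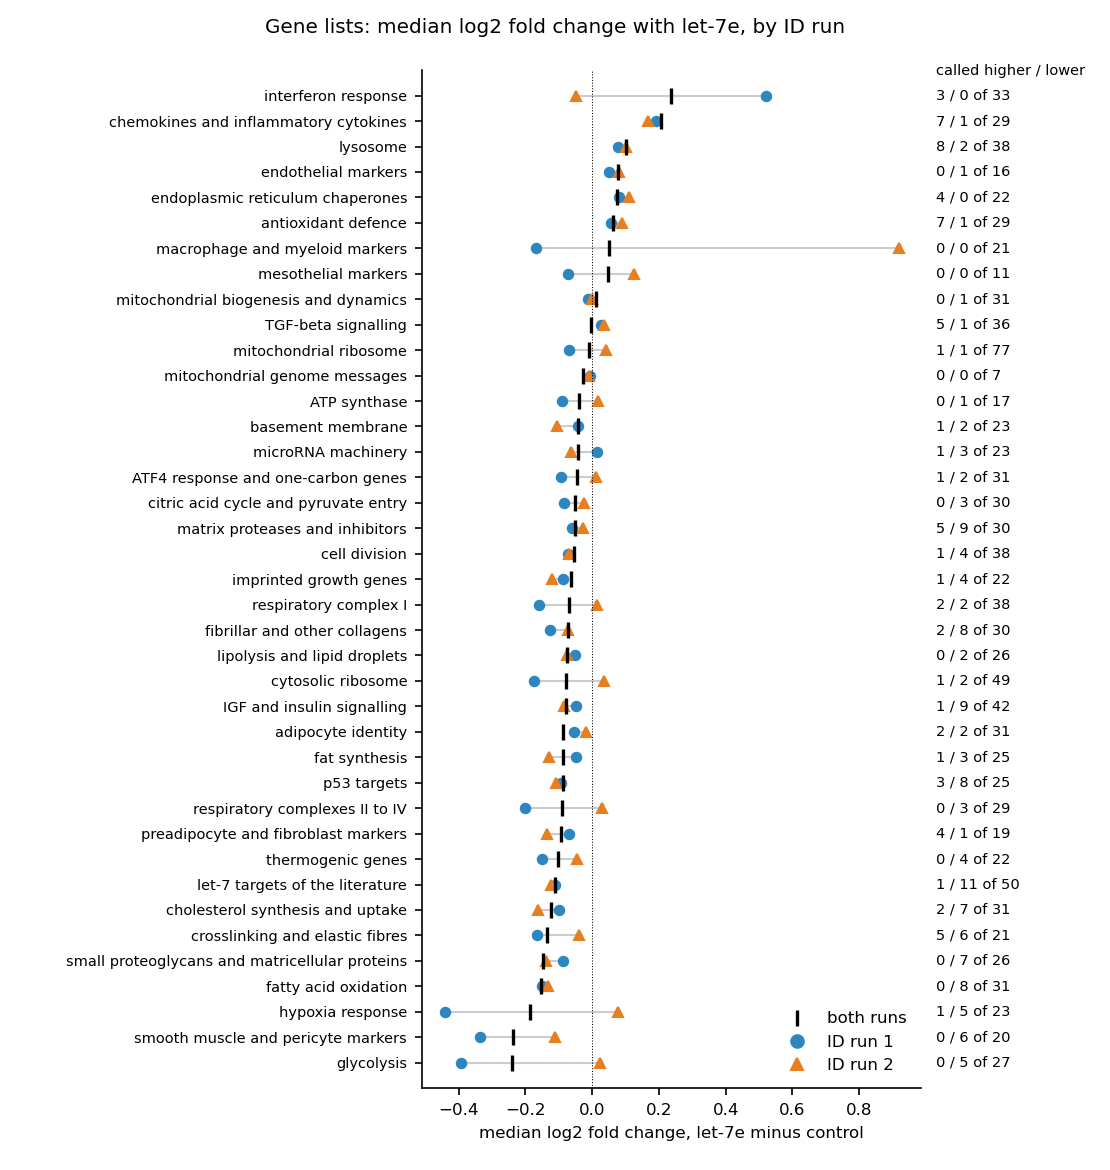
Median log2 fold change of each gene list (horizontal axis, let-7e minus control) for both runs together (black tick), ID run 1 (circle) and ID run 2 (triangle), with the numbers called higher and lower of those tested at the right. The runs lie far apart for interferon response (0.52 and -0.047), macrophage markers (-0.17 and 0.92), hypoxia response (-0.44 and 0.077) and glycolysis (-0.39 and 0.025), and close together for let-7 targets (-0.11 and -0.12) and chemokines (0.19 and 0.17).

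Fatty acid oxidation had 8 of 31 genes lower, 0 higher, 28 of 31 below 0 and a median of -0.15, -0.15 in the first run and -0.13 in the second. Etfdh, which passes electrons from fatty acid breakdown to the respiratory chain, measured 231, 259, 101 and 87.3 CPM in the controls and 203, 191, 68.1 and 67.6 CPM with let-7e. Its groups did not overlap within a run (-0.39 ± 0.060 (SE), edgeR adjusted p = 6.86e-04). Ehhadh, a peroxisomal enzyme of fatty acid oxidation with an 8mer in its 3′ UTR, fell by 0.49 (adjusted p = 0.00649, -0.28 in the first run and -0.76 in the second). These were the 2 calls that held with each library left out. The number lower was 3 without control 2, 4 without let-7e 1, 2 without let-7e 2, 5 without let-7e 3 and 5 without let-7e 4. At pyruvate entry and the citric acid cycle 3 of 30 fell and 0 rose. Pyruvate carboxylase, Pcx, went from 1149, 1362, 107 and 94.8 CPM to 969.8, 884, 65.7 and 60.8 CPM, lower in both runs without overlap (-0.56 ± 0.11, adjusted p = 0.00396), and its 3′ UTR holds a 7mer-m8 site. Idh2, the mitochondrial isocitrate dehydrogenase, fell by 0.38 (adjusted p = 7.97e-04) and Pdk2, a kinase that restrains pyruvate dehydrogenase, was at -0.43 and was not called without control 2. Without control 1 the number lower was 5.

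Fat synthesis had 3 genes lower and 1 higher of 25. Thrsp, a regulator of lipid synthesis with an 8mer in its 3′ UTR, measured 149, 131, 10.4 and 7.08 CPM in the controls and 99.3, 81.4, 2.98 and 1.70 CPM with let-7e. It was lower in both runs without overlap (-0.97 ± 0.18 (SE), edgeR adjusted p = 0.00344, -0.63 in the first run and -1.86 in the second). The desaturase Fads2 fell by 0.24 and the acyltransferase Gpam rose by 0.29 (adjusted p = 0.00926 and 0.0063), and both held with each library left out. Adipocyte identity genes had 2 higher (Lpl, Klf15) and 2 lower (Thrsp, Trarg1) of 31, of which Thrsp alone held with each library left out. Each is 6.45% of the list, beside 3.81% of all genes higher and 5.69% lower. The number higher was 4 without control 2, 1 without let-7e 3 and 0 without control 1, control 4, let-7e 1 or let-7e 4, and the number lower was 3 without control 1 or control 4 and 1 without control 2, control 3, let-7e 1, let-7e 2 or let-7e 4. Fabp4 and Adipoq, defining adipocyte genes, were at -0.041 and -0.18 and did not pass the test (adjusted p = 0.864 and 0.311). Among thermogenic genes 4 of 22 fell and 0 rose. The potassium channel Kcnk3 went from 90.7, 118, 8.42 and 7.69 CPM to 73.2, 72.4, 4.29 and 3.44 CPM (-0.68 ± 0.11, adjusted p = 9.52e-04) and Cox8b, a muscle and brown fat subunit of cytochrome oxidase, from 12.8, 15.8, 2.89 and 2.0 CPM to 7.90, 7.73, 0.864 and 1.20 CPM, neither overlapping within a run (-0.99 ± 0.14, adjusted p = 4.03e-04). The number of thermogenic genes lower was 2 without control 2, 2 without let-7e 1 and 2 without let-7e 2. For lipolysis and lipid droplets 2 of 26 fell (7.69%, beside 5.69% of all genes) and 0 rose. Neither Npr3 nor Fitm2 held with each library left out (5 lower without control 1).

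Cholesterol synthesis and uptake had 7 genes lower and 2 higher of 31, median -0.12, with 24 of 31 below 0. Mvd, an enzyme of the mevalonate pathway, measured 63.1, 62.7, 22.9 and 23.3 CPM in the controls and 49.1, 49.3, 17.1 and 18.7 CPM with let-7e, lower in both runs without overlap (-0.36 ± 0.067 (SE), edgeR adjusted p = 0.00299). Insig1, the sterol sensor that holds back cholesterol synthesis, rose by 0.40 and the sterol carrier Stard4 by 0.33 (adjusted p = 0.00292 and 0.00118). The number lower was 4 without control 2, 4 without control 3, 4 without let-7e 3 and 3 without let-7e 4.

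In the respiratory chain 5.26% of complex I, 10.3% of complex II to IV and 5.88% of ATP synthase messages were called lower, beside 5.69% of all genes. Called higher were 5.26% of complex I messages, beside 3.81% of all genes. Complex I had 2 higher and 2 lower of 38, with 33 below 0 (median -0.069, -0.041 without control 2, -0.11 without control 4 and -0.11 without let-7e 3). Complexes II to IV had 3 lower and 0 higher of 29, with 25 below 0 (median -0.091, -0.05 without control 2, -0.059 without let-7e 2 and -0.16 without control 4), and ATP synthase 1 lower and 0 higher of 17, with 11 below 0. The ATP synthase call, Atp5g2 (-0.21), was kept in only 1 of the 8 fits that left a library out. Of the 7 messages of the mitochondrial genome edgeR called 0, with mt-Co1 at -0.094 (adjusted p = 0.412) and mt-Nd1 at -0.10 (adjusted p = 0.371). Ndufa6, a complex I subunit, rose by 0.27 (adjusted p = 0.00612) and was the complex I call that held with each library left out. The medians of complexes II to IV were -0.20 in ID run 1, with 8 lower, and 0.030 in ID run 2, with 1 lower. Cox7a1, a cytochrome oxidase subunit of muscle and brown fat, was called at -0.47 (adjusted p = 0.023) with -0.70 in the first run and 0.085 in the second, and was not called without control 1, control 2, let-7e 1 or let-7e 2 (adjusted p up to 0.14). The number of complex II to IV genes lower was 1 without control 1, 1 without control 2, 1 without let-7e 1, 1 without let-7e 2, 5 without control 4 and 7 without let-7e 3. Of 77 mitochondrial ribosome genes 1 rose and 1 fell, with 41 below 0. The 1 that rose, Mrps12, a protein of the small subunit, measured 14.9, 18.3, 20.4 and 21.1 CPM in the controls and 29.2, 28.7, 33.1 and 32.5 CPM with let-7e. All 4 let-7e libraries lay above all 4 controls (0.73 ± 0.065 (SE), edgeR adjusted p = 1.02e-05). Mitochondrial biogenesis and dynamics had 1 of 31 called, Tfb1m, which was lost in 5 of the 8 fits that left a library out. Cytosolic ribosome genes had 2 lower (4.08%) and 1 higher (2.04%) of 49, with 38 below 0, beside 5.69% lower and 3.81% higher of all genes. None of those ribosome calls held with each library left out (5 were lower without control 4, 1 without let-7e 3 and 0 without control 1, control 2, let-7e 1, let-7e 2 or let-7e 4). In ID run 1 alone 9 were lower (median -0.17) and in ID run 2 alone 0 (median 0.034), and 18 of 49 reached an unadjusted p under 0.05 in the test of the difference between runs, which called 0.

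Lysosome, chaperone and antioxidant genes had more calls higher than lower. In the lysosome 8 of 38 rose and 2 fell, with 25 above 0 and a median of 0.10, 0.078 in the first run and 0.10 in the second, and 0.066 without let-7e 1. Progranulin, Grn, which is needed for lysosome function, measured 385, 426, 281 and 265 CPM in the controls and 588, 576, 333 and 337 CPM with let-7e, higher in both runs without overlap (0.41 ± 0.064 (SE), edgeR adjusted p = 8.41e-04). Hexa, a hexosaminidase subunit, rose by 0.30, the membrane protein gene Scarb2 by 0.25 and the transcription factor gene Mitf by 0.49 (adjusted p = 0.00353, 0.00465 and 0.00109). Without let-7e 1 the number higher was 5. Endoplasmic reticulum chaperones had 4 higher and 0 lower of 22. Calnexin, Canx, which folds glycoproteins, was at 445, 419, 635 and 628 CPM in the controls and 685, 727, 895 and 859 CPM with let-7e, without overlap of the groups within a run (0.59 ± 0.063, adjusted p = 3.68e-05). Sdf2l1 rose by 0.35 (adjusted p = 0.00895), and the chaperone number higher was 2 without let-7e 2, 2 without control 4 and 2 without let-7e 3. Of 29 antioxidant genes 7 rose and 1 fell. The glutathione transferase Gstm1 rose by 0.48, the glutathione synthesis subunit Gclm by 0.27, the reductase Gsr by 0.23 and the haem oxygenase Hmox1 by 0.40 (adjusted p = 2.13e-04, 0.00184, 0.00945 and 0.00798). The antioxidant number higher was 4 without let-7e 1, 4 without control 3 and 4 without let-7e 4.

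Among p53 targets 8 of 25 fell and 3 rose, median -0.088, -0.094 in the first run and -0.11 in the second. Btg2, an antiproliferative gene with a 7mer-A1 site, measured 39.4, 40.0, 56.5 and 62 CPM in the controls and 26.5, 27.8, 40.3 and 47 CPM with let-7e. It was lower in both runs without overlap (-0.49 ± 0.066 (SE), edgeR adjusted p = 2.39e-04). The cell cycle inhibitor Cdkn1a fell by 0.32 and the death receptor Tnfrsf10b fell by 0.42, while Rrm2b, a ribonucleotide reductase subunit, rose by 0.42 (adjusted p = 0.00285, 6.63e-04 and 0.00336). Of the 11 calls 9 held with each library left out. Cell division genes had 4 lower and 1 higher of 38, and Tk1, thymidine kinase (-0.26, adjusted p = 0.0125), was the call that held. The number of cell division genes lower was 1 without let-7e 1, 2 without control 4, 2 without let-7e 3 and 2 without let-7e 4. In TGF-beta signalling 5 of 36 rose and 1 fell, with Bmp6, a growth factor, at 0.48 and its distant relative Gdf10 at -0.43 (adjusted p = 0.00598 and 0.0115). The number of these higher was 3 without control 1, 3 without let-7e 1, 3 without let-7e 2 and 3 without let-7e 4. ATF4 response and one-carbon genes had 2 lower (6.45%) and 1 higher (3.23%) of 31, beside 5.69% and 3.81% of all genes. Of these calls Vldlr, a lipoprotein receptor (-0.25, adjusted p = 0.00569), held, and 5 were lower without control 3.

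The let-7e and let-7d libraries were also compared with each other in the fit of all 12 libraries. The controls entered the estimates of the spread and of the run term there, but not the contrast. In this contrast 15 genes were higher with let-7e (0.0952%) and 9 lower (0.0571%), 24 in all (0.152%), by edgeR at an adjusted p under 0.05, and 8 of them were also called between let-7e and control. P2rx4 was the strongest, at 49.3, 49.7, 38.6 and 37.7 CPM in controls 1 to 4, 52.4, 53.5, 46.4 and 44.5 CPM in let-7d 1 to 4 and 23.5, 22.2, 19.7 and 20.4 CPM in let-7e 1 to 4. All let-7e libraries lay below all libraries of both other groups, and let-7e minus let-7d was -1.20 ± 0.053 (SE, adjusted p = 2.38e-09). Col4a2 measured 1693, 1648, 725 and 863 CPM with let-7d against 1089, 1173, 486 and 526 CPM with let-7e, without overlap within a run and a difference of -0.61 ± 0.079 (adjusted p = 0.00473). Its 3′ UTR holds a 7mer-A1 site, which both mimics can pair with. Inpp5k, a phosphatase of inositol lipids, stood at 21.9, 22.2, 23.5 and 24.4 CPM with let-7d and 14.7, 14.3, 15.9 and 17.7 CPM with let-7e (-0.55 ± 0.066, adjusted p = 0.00211), on either side of its control values of 18.1, 19.8, 18.3 and 19 CPM. Odf2, with its 18 paired bases, differed by -0.37 ± 0.064 (adjusted p = 0.0394), while Sumf2 (-0.0039), Dicer1 (0.069), Ank3 (0.053) and Tnfsf10 (-0.42) did not pass this test (adjusted p = 0.993, 0.779, 0.925 and 0.655).

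Higher with let-7e than with let-7d were Plxna4, a semaphorin receptor (0.52 ± 0.089 (SE), adjusted p = 0.0394), Apba1 (0.67 ± 0.12, 0.0443), Olr1, the receptor of oxidised LDL (0.53 ± 0.095, 0.0394), Enpp1 (0.50 ± 0.092, 0.0443) and Loxl3, a lysyl oxidase (0.49 ± 0.084, 0.0394). Plxna4 measured 74.8, 67.1, 18.2 and 25.3 CPM in the controls, 36.2, 31.6, 11.5 and 10.6 CPM with let-7d and 45.3, 51.1, 16.2 and 16 CPM with let-7e. Both mimic groups lay below the controls of their run, and let-7e lay between control and let-7d. Loxl3 stood at 194 CPM in let-7e 3, a value flagged below as apart from the other let-7e libraries. The count of this contrast depended on the libraries, being 3 without let-7d 1, let-7d 2, let-7d 4, let-7e 2 or let-7e 3, 4 without let-7e 1, 7 without let-7d 3 and 17 without let-7e 4. Of 10 values of single genes in this contrast, 7 lost their call without let-7d 1, let-7d 2 or let-7d 4, and 6 without let-7d 3. With the replicate number as a block in place of the run it was 5, with DESeq2 115, and with only the 8 mimic libraries in the fit 98.

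**Figure D5:**
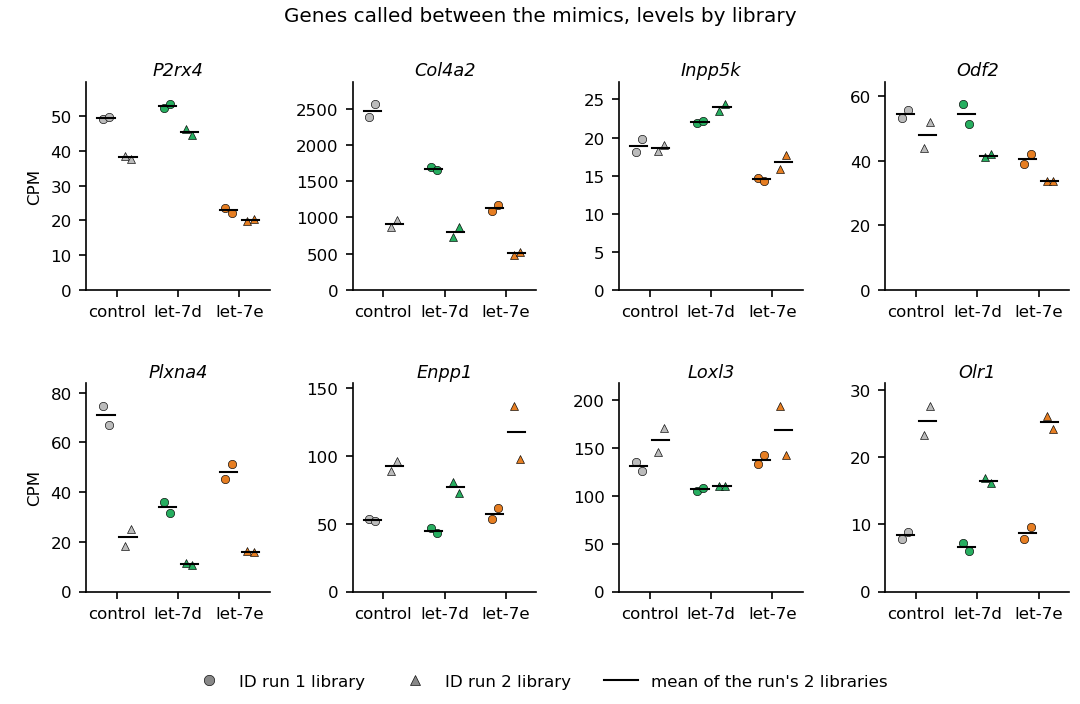
Levels of 8 genes called between the mimics (vertical axes, CPM, starting at 0) in negative control, let-7d and let-7e libraries, with circles for ID run 1, triangles for ID run 2 and a bar at the mean of each pair. P2rx4 is at 19.7 to 23.5 CPM in the let-7e libraries and at 37.7 CPM or more in all others, while let-7e lies above let-7d in each run for Plxna4, Enpp1, Loxl3 and Olr1.

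Whether the let-7e response differed between the runs was tested gene by gene. EdgeR called 1 gene (0.00635%), and 1398 genes (8.87%) had an unadjusted p under 0.05. The 1 gene, Gm20559, is a predicted gene with no annotated 3′ UTR, at 14.8, 15.3, 36.6 and 34.1 CPM in the controls and 26, 27.1, 34.3 and 31.5 CPM with let-7e. It was higher in ID run 1 and overlapped in ID run 2, a difference between the runs of -0.92 ± 0.12 (SE, adjusted p = 0.0362). Fits that left a library out called 0 without control 2, control 3, let-7e 1, let-7e 2 or let-7e 3, 7 without control 4, 17 without let-7e 4 and 153 without control 1.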

How the data were processed

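Reads were aligned with STAR to GRCm38.p6, per the submitters' processing notes. Strandedness, the STAR version and the read counter were not given in the sources used here. The deposited table holds raw counts per gene for 15754 Ensembl identifiers in 12 libraries, 15071299 to 33396316 per library, and was already filtered on low levels (the lowest of the genes' highest levels is 0.456 CPM). Of the identifiers 15742 matched a symbol in GENCODE vM21. A second deposited table, of RPKM values, was not used because its values do not follow from the counts.

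Counts of all 12 libraries were fitted with edgeR 4.0.16 (R 4.3.3) with TMM scaling, a group and an ID run term (8 residual degrees of freedom), the quasi-likelihood test and Benjamini-Hochberg adjustment over all genes, two-sided. filterByExpr removed no gene. CPM values use the TMM-scaled library size. Standard errors are approximations from the same fit, the size of the log2 fold change divided by the square root of the test's F statistic. The fit was tested on simulated counts. Replicates differed by more than sampling noise (chi-square per degree of freedom 2.37 to 10.2). Replicate numbers are shared between groups, and same-numbered libraries deviated together only as far as the runs do (let-7e and control r = 0.92 to 0.95 from group means, -0.16 in ID run 1 and 0.072 in ID run 2 from group and run means), so the numbers were taken to share the run only. 3′ UTRs and messages come from GENCODE vM21. Alternatives were RLE and upper quartile scaling, DESeq2 1.42.0, limma-voom (limma 3.58.1), other filters, terms and library sets.

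Genes were named by rule, 12 with the largest called rise and 12 with the largest called fall, at an average of at least 2 log2 CPM, outside predicted genes and with every let-7e library on one side of its run's control mean. Up to 4 called members of each of 40 lists, the 5 largest differences each way from let-7d and a few let-7 genes were added. Other members are named to complete a count, or as chosen after their values were seen. Some members are counted in their lists and not reported here by name. Members, lists and tests were chosen with earlier results of these data known. Genes that share reads with near-identical copies or lie on opposite strands of one locus are uncertain.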

Additional observations from a re-analysis of the deposited data

Results flagged for a closer look

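In 322 groups of 4 libraries, each gene's highest or lowest value was compared with Dixon's critical value, and 2 passed. Each group mixes 2 libraries of each ID run, so the usual chance rate of about 1 in 20 does not apply. A library that stands apart within its run can be missed where the runs differ in level. Loxl3 stood at 194 CPM (194.338) in let-7e 3 and at 134 to 143 CPM in the other let-7e libraries. P4ha2 stood at 207 CPM (207.499) in control 1 and at 222 to 225 CPM in the other controls. Loxl3 is described above as higher with let-7e than with let-7d, and P4ha2 is a member of the lists of collagens and hypoxia genes. The let-7e response of Gm20559 differed between the runs by -0.92 (ID run 2 minus ID run 1) by the edgeR interaction test, from 0.82 in the first to -0.10 in the second.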

How the results depend on the processing

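The 1496 genes called with let-7e were 1406 to 1629 with RLE or upper quartile scaling, DESeq2, limma-voom, other filters or the replicate block (1463), and 1270 with only the 8 libraries in the fit. Without a term for ID run 0 genes were called against control (0 higher, 0 lower, 0 literature targets, 0 genes with an 8mer) and 1 against let-7d. Within ID run 2 the count was 390 (144 higher, 246 lower), with 3 literature targets and 24 genes with an 8mer lower. Within ID run 1, 50 genes with an 8mer were lower. In both runs together, 53 of the 287 genes with an 8mer in the shortest annotated 3′ UTR were lower (18.5%). With 1 library left out the calls ranged from 844 to 1456 (331 to 644 higher, 513 to 829 lower), the literature targets from 8 to 11 and the genes with an 8mer from 54 to 80. Against let-7d the 24 calls were 115 with DESeq2, 5 with the replicate block, 98 with only the 8 libraries, 1 within ID run 1, 10 within ID run 2 and 3 to 17 with a library left out. The difference between runs gave 2 calls with upper quartile scaling, 50 with DESeq2, 0 with limma-voom and, in fits chosen after seeing the data, 0 to 153 with a library left out. No other count crossed 1.5 times under the replicate block. Cox7a1 changed sign within ID run 2 (0.085). Of 171 values of single genes, 152 lost their call without the run term, 86 within ID run 2, 51 within ID run 1, 11 with the replicate block, 9 with only the 8 libraries, 7 with limma-voom and 4 or fewer under each scaling, filter or DESeq2. The causes were not tested. What depth limits was not tested, and the median standard error was 0.084 on the log2 scale.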

Other observations

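Genes below the level at which genes were named hold the largest relative rises. Gm9696, a transcribed pseudogene, was at 0.472, 0.278, 0 and 0.0409 CPM in controls 1 to 4 and 3.23, 3.51, 0.0894 and 0.193 CPM in let-7e 1 to 4 (3.03 ± 0.35 (SE), edgeR adjusted p = 7.24e-05). Its let-7e libraries were higher in both runs, at levels that matter in ID run 1 only. Acot5, an acyl-CoA thioesterase of peroxisomes, was at 2.31, 2.30, 0.0752 and 0 CPM and 6.02, 6.55, 0.417 and 0.271 CPM (1.58 ± 0.24, adjusted p = 6.70e-04), again low in ID run 2. Among 471 processed pseudogenes 26 were called lower and 1 higher, next to 848 lower and 575 higher of 13601 protein-coding genes. The pseudogenes called lower were about as frequent as the 5.69% over all genes, and those called higher were less frequent than the 3.81%. Reads of such copies may come from their parent genes, which was not tested.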
